A study of Mus musculus with 8 samples.

Results

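The integrin subunit genes *Itga2*, *Itga3*, *Itga5*, *Itga6*, *Itgav*, *Itgb1*, *Itgb4*, *Itgb5*, *Itgb6* and *Itgb8* were examined, 10 of the 37310 genes in the count table. They were chosen by symbol. RNA-seq was carried out on NMuMG cells, an epithelial line from the normal mouse mammary gland, in 4 conditions with 2 libraries each, which the study calls biological replicates. Control cells and cells with a CRISPR/Cas9 deletion in the long non-coding RNA gene *Lnc-Nr6a1* were either left untreated or given 10 ng/ml TGFβ1 for 2 h. All cells were grown in medium with serum and insulin. The deleted cells were derived from single sorted cells, and the number of clones behind the libraries is not given in the sources used here. The labels call these libraries KO, and they are named KO-labelled libraries in the text, since the deleted gene did not tell the untreated ones apart.

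Integrins are the main receptors by which cells hold on to the extracellular matrix. Each is a pair of an α and a β subunit, and the pairing sets the ligand. In epithelial cells, α2β1 binds collagen, α3β1, α6β1 and α6β4 bind laminins, α5β1 binds fibronectin, and αvβ5, αvβ6 and αvβ8 bind proteins with the Arg-Gly-Asp motif. Of the last group, αvβ6 and αvβ8 bind the latency-associated peptide and can release active TGF-β from its latent complex, and α6β4 anchors hemidesmosomes to keratin filaments. Epithelial cells exposed to TGF-β can lose cell contacts and gain motility, a process known as epithelial-mesenchymal transition, in which the set of integrins on the cell is known to change.

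Promoter entries were matched in RefSeq for 8 of the 10 genes, all but *Itga6* and *Itgb4*. The 250 bases upstream of the RefSeq start are shown for the members that were called higher after TGF-β in both backgrounds, on the strand of the gene. The stretch of *Itgb6* has 210 of the 250 bases, as it ends where the GENCODE gene begins, short of the RefSeq start. Each sequence occurred once in the mm9 assembly, from which the positions were taken. Capitals mark a match on either strand to CAGAC, the SMAD-binding element, to CATTCC, the TEAD element, or to TGANTCA, the AP-1 element, and no 2 of these matches overlapped.
*Itgb6* (mm9, chr2:60560701-60560910, minus strand): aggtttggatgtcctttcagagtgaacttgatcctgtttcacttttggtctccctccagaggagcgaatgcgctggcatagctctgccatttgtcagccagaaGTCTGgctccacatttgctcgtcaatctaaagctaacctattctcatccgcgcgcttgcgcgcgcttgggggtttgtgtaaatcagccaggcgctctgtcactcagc
*Itga2* (mm9, chr13:115722309-115722558, minus strand): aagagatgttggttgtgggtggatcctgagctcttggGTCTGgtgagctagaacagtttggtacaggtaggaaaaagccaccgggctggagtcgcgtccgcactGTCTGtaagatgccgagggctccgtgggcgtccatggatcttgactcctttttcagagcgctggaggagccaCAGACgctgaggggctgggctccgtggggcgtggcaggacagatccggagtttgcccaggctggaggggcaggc
*Itgb1* (mm9, chr8:131209304-131209553, plus strand): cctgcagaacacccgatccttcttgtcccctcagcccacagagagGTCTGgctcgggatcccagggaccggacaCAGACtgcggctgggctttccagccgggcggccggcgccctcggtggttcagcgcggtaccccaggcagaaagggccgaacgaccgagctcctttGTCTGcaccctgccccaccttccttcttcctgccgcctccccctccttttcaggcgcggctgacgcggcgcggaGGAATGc
*Itgb5* (mm9, chr16:33829501-33829750, plus strand): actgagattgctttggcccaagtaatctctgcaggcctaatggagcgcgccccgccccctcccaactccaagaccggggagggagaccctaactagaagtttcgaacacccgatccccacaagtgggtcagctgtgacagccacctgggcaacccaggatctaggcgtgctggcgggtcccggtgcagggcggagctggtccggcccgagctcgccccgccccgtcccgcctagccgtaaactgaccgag

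In the 250 bases before the RefSeq start, CAGAC was found 3 times for *Itga2* (213, 146 and 74 bases before that start), 3 times for *Itgb1* (205, 176 and 81 bases) and 1 time for *Itgb6* (147 bases). CATTCC was found 1 time, for *Itgb1* (7 bases), and TGANTCA in no window shown. The *Itgb5* window held none of the 3 motifs. RefSeq gives *Itgb6* a second promoter (chr2:60511751-60512000), not shown, whose window held none of them either. Over 32851 mouse promoter windows of the same length, 42.2% held CAGAC, 12.6% held CATTCC and 6.75% held TGANTCA. With such shares, a match describes the letters of the window and nothing about binding.

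The deleted gene lies just upstream of *Mir181a-2* and *Mir181b-2*, so the 3′ UTRs of the members were searched for the site of the miR-181-5p family. The mature sequences, with the seed (bases 2 to 8) in capitals, are shown with the 29 bases around each match to the seed (TGAATGT, in capitals) in the members that could be tested.
mmu-miR-181a-5p: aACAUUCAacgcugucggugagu
mmu-miR-181b-5p: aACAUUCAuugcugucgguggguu
*Itga2* (mm9, chr13:115626128-115626156, minus strand): taatgaaaaaaTGAATGTttgttgacaag
*Itga3* (mm9, chr11:94906076-94906104, minus strand): ggtgtgatactTGAATGTagcatggcagg
*Itgb6* (mm9, chr2:60442368-60442396, minus strand): atttttgataaTGAATGTttatatttggg

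*Itgb8* held 2 such matches, and *Itga5*, *Itga6*, *Itgav*, *Itgb1*, *Itgb4* and *Itgb5* held 0. Of 11407 tested genes with an annotated 3′ UTR, 17.9% held at least 1 match. These are letter matches only, and the levels of the miRNAs were not measured in these libraries.

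Total counts were between 4297832 and 13574397 per library, the lowest in an untreated KO-labelled library. At these depths 3 counts, the lowest level taken as detected, came to 0.238 to 0.661 CPM (counts divided by the TMM-scaled library size), a floor that covers counting error only. *Lnc-Nr6a1*, listed as *Gm13507*, was counted 3 and 14 times in control cells before and 25 and 35 times after TGF-β, and 11 and 7 times before and 0 and 0 times after it in the KO-labelled libraries, so that its level does not check the label of the untreated KO-labelled libraries. Of 8 epithelial markers, *Cdh1*, *Krt7*, *Krt8*, *Krt18* and *Krt19* exceeded 3 counts in every library, whereas *Epcam*, *Cldn7* and *Esrp1* had at most 2 counts. *Krt7* was near the floor, at 0.326 to 1.76 CPM. The list summed to 5873 to 6970 CPM in the untreated and 7937 to 10928 CPM in the treated libraries, and the TGF-β comparison in control cells called *Krt8* and *Krt18* higher (log2 fold changes of 0.65 and 0.96, adjusted p = 0.0472 and 0.0295, edgeR) but neither in the KO-labelled libraries (0.58 and 0.48, adjusted p = 0.0792 and 0.229, edgeR). Between the treated genotypes *Cdh1* was called higher in the KO-labelled libraries (0.61, adjusted p = 0.0433, edgeR). Summed levels were 0.797 to 4.73 CPM for 6 fibroblast markers, 0 to 0.847 CPM for 4 endothelial markers and 2.15 to 5.58 CPM for 6 immune markers, with *Col3a1*, *Lum*, *Kdr*, *Ptprc* and *Cd3e* at 0 to 2 counts in every library. Of the markers on these lists, the endothelial *Cdh5* had 0 counts in the 4 untreated and 3 to 8 in the treated libraries. The fibroblast marker *Col1a1* was at 0.362 and 1.1 CPM before and 1.78 and 3.17 CPM after TGF-β in control cells (log2 fold change 1.74, adjusted p = 0.213, edgeR), and at 4.19 and 0.665 CPM, then 4.24 and 3.26 CPM, with the KO label. The macrophage marker *Cd68* was at 1.99 to 5.32 CPM, with log2 fold changes of -0.14 in control cells (adjusted p = 0.866, edgeR) and -1.11 in the KO-labelled libraries (adjusted p = 0.146, edgeR). Basal and myoepithelial markers also moved with the treatment, from 3.09 to 5.79 CPM in the untreated libraries to 24 to 42.2 CPM in the treated ones, almost all of it *Krt14*, a basal keratin, while *Krt5*, *Acta2* and *Myh11* had at most 2 counts in any library, as did *Krt17* and *Trp63* except in treated KO-labelled replicate 2 (6 and 9 counts, 0.477 and 0.715 CPM). Their part in the integrin changes was not tested, and in these bulk libraries fewer cells of a type and less RNA per cell cannot be told apart.

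*Itgb1* was the most abundant of the 10 transcripts in every condition. Its level per length, as CPM per kilobase of annotated exons, was 128 ± 12.7 (SD, n = 2) in untreated control cells, followed by *Itga3* at 42.4 ± 1.05, *Itga6* at 26.8 ± 0.555, *Itgb5* at 22.9 ± 1.03, *Itgav* at 19.6 ± 2.06, *Itgb4* at 18.3 ± 0.851, *Itga2* at 10.7 ± 2.11, *Itgb6* at 8.27 ± 1.88 and *Itga5* at 5.18 ± 1.33. The libraries of *Itgav* and *Itgb4*, and of *Itga2* and *Itgb6*, overlapped, and those of the other neighbours in this order did not. After TGF-β, *Itgb6* moved from rank 8 to rank 2 in control cells (60.6 ± 4.32 CPM per kb) and from rank 7 to rank 2 in the KO-labelled libraries (90.7 ± 15.7 CPM per kb). *Itga2* moved from rank 7 to rank 3 in control cells, where its libraries overlapped those of *Itgb6*, and from rank 9 to rank 5 in the KO-labelled libraries, where its 2 treated libraries (28.1 and 69.5 CPM per kb) overlapped the range of 6 other subunits, from *Itgb5* to *Itga5*. *Itgb8*, the other β partner of *Itgav* that acts on latent TGF-β, had 1 to 5 counts per library and at most 0.469 CPM. It was the only member that did not pass the filter on low counts, and it was not tested.

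**Figure D1:**
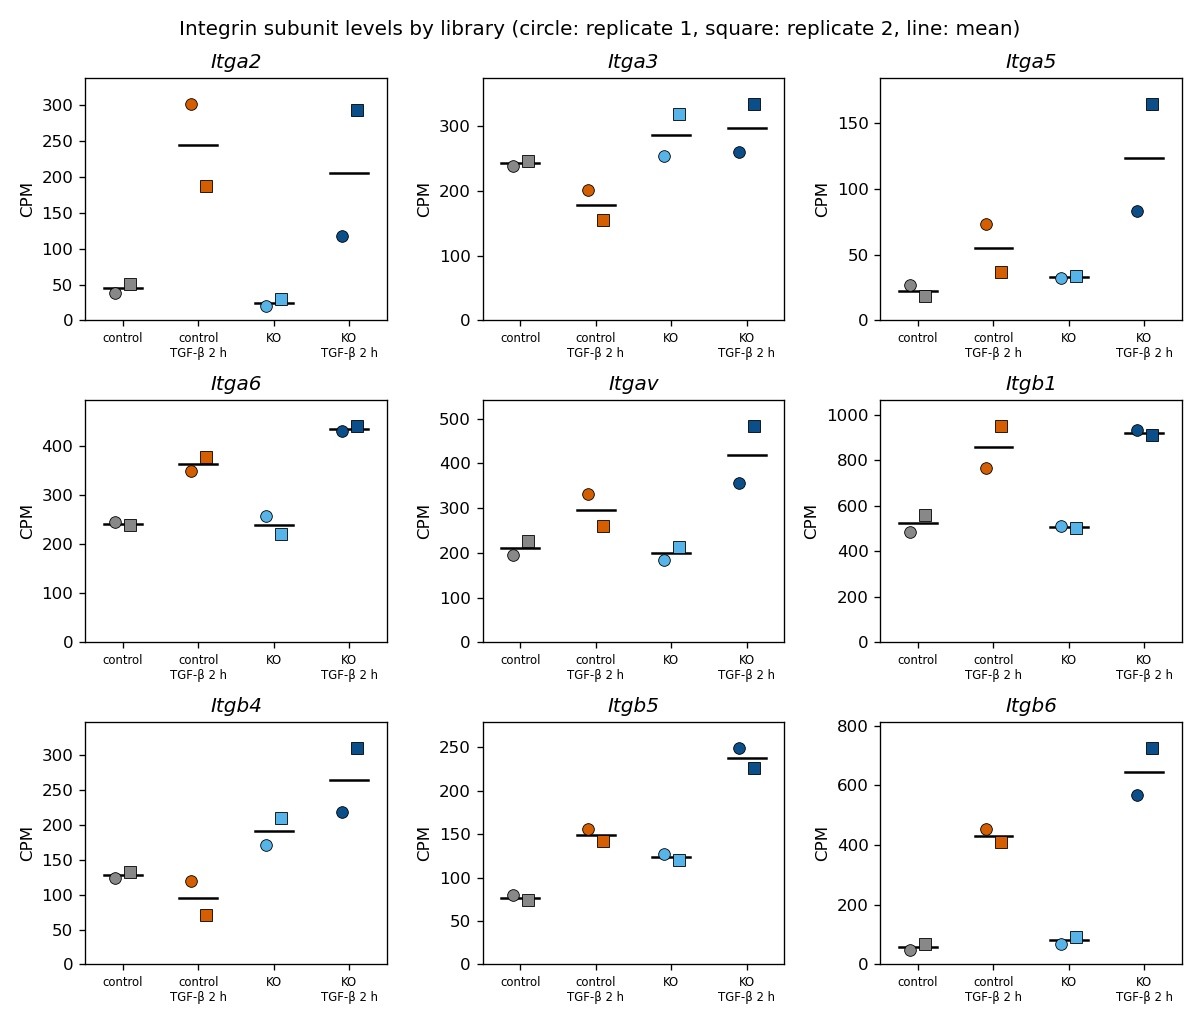
CPM (counts scaled by library sizes with TMM factors, linear axis from 0) of the 9 tested integrin subunits in each library, by condition. Circles are replicate 1, squares replicate 2 and lines the mean of both. For *Itgb6* the treated libraries sit at 409 to 724 CPM and the untreated ones at 49.3 to 93.2 CPM, whereas the libraries of *Itga3* stay between 155 and 333 CPM.

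The first question was how the subunits responded to 2 h of TGF-β. In control cells, *Itga2*, *Itga6*, *Itgb1*, *Itgb5* and *Itgb6* rose, 5 of the 9 subunits tested. A gene was called at an adjusted p (edgeR's quasi-likelihood test, Benjamini-Hochberg over 13028 genes) below 0.05 with a log2 fold change beyond 0.5 in size, which held upward for 4.69% and in either direction for 9.16% of all genes tested. In the KO-labelled libraries the same 5 genes rose along with *Itga5* and *Itgav*, 7 of 9, against 4.25% of all genes upward and 6.82% in either direction. The median log2 fold change of the 9 subunits was 0.72 in control cells and 0.94 in the KO-labelled libraries, where the medians of all genes tested were 0.016 and 0. Each comparison has its own untreated and treated libraries. All libraries of a group lay on one side of the other group's for 53.7% of all genes tested in control cells and 56.6% in the KO-labelled libraries, so groups that do not overlap are common with 2 libraries each.

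*Itgb6*, the β subunit of the epithelial receptor αvβ6 (ENSMUSG00000026971.9, mm9 chr2:60436349-60560700, minus strand), had the largest rise of the members in control cells. Its level was 49.3 and 68.2 CPM in the untreated control libraries and 453 and 409 CPM after TGF-β. The KO-labelled libraries had 69.7 and 93.2 CPM before and 566 and 724 CPM after treatment. The treated libraries thus stood far above all untreated ones in both backgrounds. The rise was 7.33-fold in control cells (log2 fold change 2.87, SE 0.22, adjusted p = 0.000416, edgeR) and 7.9-fold in the KO-labelled libraries (2.98, SE 0.22, adjusted p = 0.000313, edgeR). No other member stayed called in both backgrounds whichever library was left out.

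*Itgb5*, the β subunit of the vitronectin receptor αvβ5 (chr16:33829751-33949239, plus strand), was at 79.5 and 74.6 CPM in untreated control cells and at 156 and 142 CPM after TGF-β. The KO-labelled libraries held 127 and 120 CPM before and 249 and 226 CPM after treatment. The groups did not overlap, and the untreated KO-labelled libraries lay between the untreated and the treated control libraries. The rise was of like size in both backgrounds, 0.95 on the log2 scale in control cells (SE 0.14, adjusted p = 0.00429, edgeR) and 0.94 in the KO-labelled libraries (SE 0.14, adjusted p = 0.00479, edgeR).

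*Itgav*, the α partner of *Itgb5*, *Itgb6* and *Itgb8* (chr2:83564554-83647073, plus strand), was called in the KO-labelled libraries. There it was at 185 and 213 CPM before and 357 and 483 CPM after TGF-β, a log2 fold change of 1.08 (SE 0.19, adjusted p = 0.0111, edgeR). In control cells it was at 195 and 227 CPM before and 331 and 261 CPM after treatment, without overlap, and its log2 fold change of 0.49 (SE 0.19) had an adjusted p of 0.134 (edgeR). An annotated antisense RNA, *Gm13684*, shares 634 exon bases (5.9%) with *Itgav*. Since the sources used here do not say whether strand was used in counting, reads over these shared bases cannot be assigned to 1 of the pair.

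*Itga5*, the α subunit of the fibronectin receptor α5β1 (chr15:103174720-103197194, minus strand), had the lowest mean per length of the tested members in 3 of the 4 conditions. In both treated conditions its libraries overlapped those of *Itgb4*. In control cells it was at 26.8 and 18.6 CPM before and 73.3 and 37 CPM after TGF-β. The treated libraries were both higher but far apart, and the log2 fold change of 1.28 (SE 0.38) had an adjusted p of 0.0653 (edgeR). The KO-labelled libraries rose from 32 and 34 CPM to 83 and 164 CPM, by a log2 fold change of 1.9 (SE 0.38, adjusted p = 0.0194, edgeR).

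*Itga2*, the α subunit of the collagen receptor α2β1 (ENSMUSG00000015533.8, chr13:115626124-115722249, minus strand), rose most among the α subunits. Its level was 38.7 and 51.3 CPM in untreated control cells and 301 and 187 CPM after TGF-β, and 19.8 and 29.8 CPM in the KO-labelled libraries before and 118 and 293 CPM after it. The treated replicates lay far apart, yet every treated library was above every untreated one. The rise was 5.43-fold in control cells (log2 fold change 2.44, SE 0.41, adjusted p = 0.00871, edgeR) and 8.19-fold in the KO-labelled libraries (3.03, SE 0.43, adjusted p = 0.00424, edgeR).

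*Itgb1*, the β subunit shared by the collagen, laminin and fibronectin receptors (chr8:131209554-131257100, plus strand), was at 486 and 559 CPM in untreated control cells and at 768 and 949 CPM after TGF-β. The KO-labelled libraries had 512 and 504 CPM before and 931 and 911 CPM after treatment. The groups did not overlap, and the rise was 0.72 on the log2 scale in control cells (SE 0.14, adjusted p = 0.0187, edgeR) and 0.86 in the KO-labelled libraries (SE 0.14, adjusted p = 0.00937, edgeR). *Itga6*, the laminin-binding partner of both *Itgb1* and *Itgb4* (chr2:71583673-71696473, plus strand), was at 246 and 239 CPM in untreated control cells and at 349 and 379 CPM after TGF-β, a rise of 0.59 (log2, SE 0.13, adjusted p = 0.0277, edgeR). It rose from 257 and 222 CPM to 432 and 441 CPM in the KO-labelled libraries, by 0.87 (log2, SE 0.13, adjusted p = 0.00584, edgeR).

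*Itga3* and *Itgb4* did not pass the test for TGF-β in either background with all libraries and the filter on low counts. *Itga3*, the α subunit of the laminin receptor α3β1 (chr11:94905788-94938115, minus strand), was at 238 and 246 CPM in control cells before and 201 and 155 CPM after treatment (log2 fold change -0.44, SE 0.19, adjusted p = 0.162, edgeR), and at 254 and 318 CPM before and 260 and 333 CPM after it in the KO-labelled libraries (0.05, SE 0.18, adjusted p = 0.897, edgeR). *Itgb4*, the hemidesmosomal β subunit (ENSMUSG00000020758.9, chr11:115836023-115869726, plus strand), was at 124 and 133 CPM before and 119 and 70.9 CPM after TGF-β in control cells, with a log2 fold change of -0.44 (95% interval -1 to 0.13, adjusted p = 0.296, edgeR). With the KO label it was at 172 and 210 CPM before and 219 and 310 CPM after treatment (0.47, 95% interval -0.09 to 1.03, adjusted p = 0.304, edgeR). *Itgb4* was called lower in control cells without treated control replicate 1 (log2 fold change -0.87). In the KO-labelled libraries it was called higher with no filter, on the same counts of the gene (0.53, adjusted p = 0.0367, edgeR).

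Leaving out an untreated library changed most of these calls. Each such fit leaves 1 condition with a single library, which is assumed to vary like the others. In control cells, *Itgb6* was the only member still called without control replicate 1, and *Itgb5* and *Itgb6* without control replicate 2. Calls over all genes fell too, from 9.16% to 1.05% and 2.28% in these fits. *Itga6* and *Itgb1* also lost their calls without treated control replicate 2, and *Itga6* without either untreated KO-labelled library. Adjusted p-values of lost calls were 0.05 to 0.171, while the log2 fold changes over all 8 omissions were 0.53 to 0.63 for *Itga6*, 0.56 to 0.85 for *Itgb1*, 2.04 to 2.74 for *Itga2* and 0.87 to 1.02 for *Itgb5*. In the KO-labelled libraries, *Itgb6* alone was still called without untreated replicate 1, *Itga2* and *Itgb6* without untreated replicate 2, and *Itga5* and *Itgav* also lost their calls without treated replicate 2. Over all genes the calls fell from 6.82% to 0.995%, 1.27% and 2.09% in these 3 fits. Adjusted p-values of these lost calls were 0.0525 to 0.152. The log2 fold changes there were 1.36 to 2.33 for *Itga5*, 0.88 to 1.3 for *Itgav*, 0.77 to 0.98 for *Itga6*, 0.86 to 0.9 for *Itgb1*, 0.89 to 1.04 for *Itgb5* and 2.27 to 3.57 for *Itga2*, and those of *Itgb6* were 2.8 to 3.22. With the 4 libraries of the comparison alone, *Itga6* and *Itgb1* lost their calls in control cells, where 3.74% of all genes were called. The 7 calls in the KO-labelled libraries held in such a fit, beside 7.47% of all genes.

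**Figure D2:**
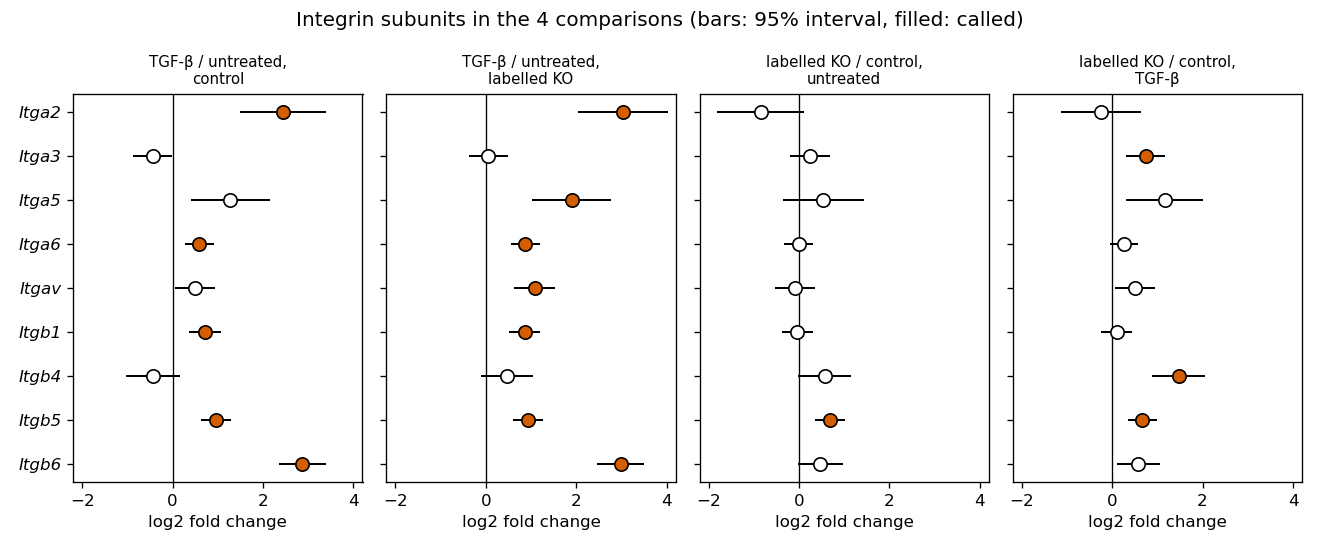
Log2 fold change (horizontal axis) of the 9 tested subunits in the 4 comparisons, from edgeR fitted to all 8 libraries. Points are estimates, bars 95% intervals, and filled points were called. *Itgb6* reaches 2.87 and 2.98 after TGF-β, and *Itgb4* reaches 1.48 between the treated libraries.

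Ratios of subunits within a library show how the possible pairs shifted, on the scale of CPM per kb. *Itgb6* stood at 0.382 and 0.455 of *Itgav* in untreated control cells and at 2.07 and 2.37 after TGF-β. The KO-labelled libraries had a ratio of 0.57 and 0.661 before and 2.39 and 2.27 after treatment, so that *Itgb6* passed from below to above its partner in every treated library. The transcript of *Itgb6* was also below that of *Itgb5*, another β partner of *Itgav*, in untreated cells (ratios of 0.258 to 0.433) and above it after treatment (1.08 to 1.52). *Itga2* relative to *Itga3*, both partners of *Itgb1*, went from 0.22 and 0.282 to 2.03 and 1.64 in control cells, and from 0.106 and 0.127 to 0.615 and 1.19 in the KO-labelled libraries. *Itgb4* relative to *Itga6* was 0.652 and 0.717 in untreated and 0.44 and 0.24 in treated control cells, against 0.862 and 1.21, then 0.653 and 0.903, in the KO-labelled libraries. The ratio of *Itga6* to *Itgb1* was 0.181 to 0.229 in all 8 libraries. Transcript ratios do not give the amounts of receptor on the cell surface. They were not adjusted for GC content, which the libraries followed to unlike degrees (given below). The exons of *Itgb4* (59.4% GC) and *Itga6* (45.2%), of *Itga3* (57%) and *Itga2* (45.3%), and of *Itgb5* (57.4%) and *Itgb6* (45%) differ in it.

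**Figure D3:**
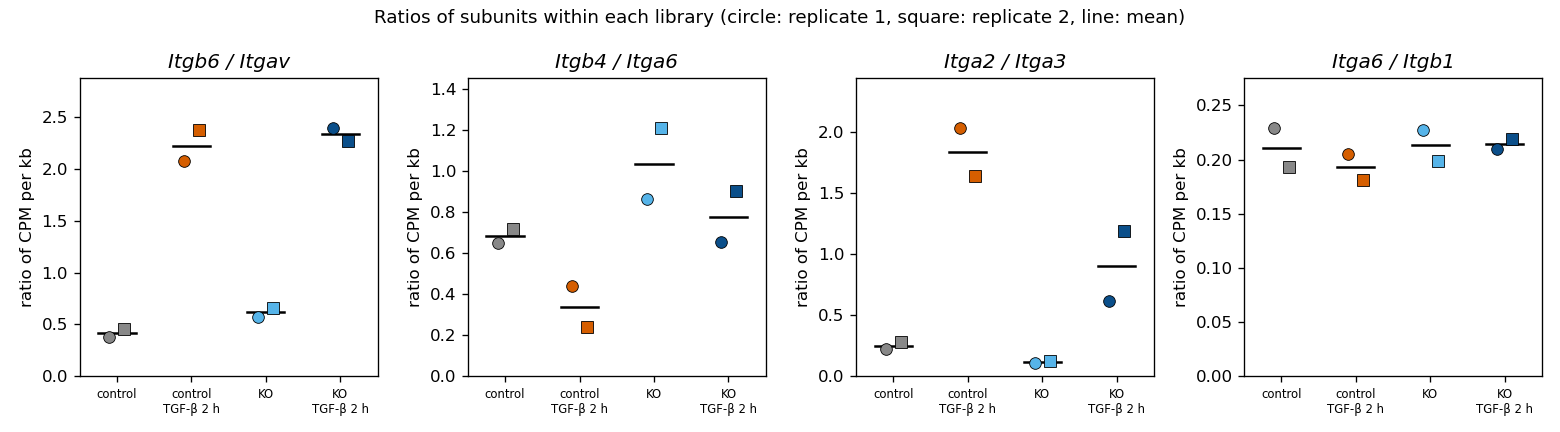
Ratios of CPM per kb between subunits in each library (linear axes from 0), by condition, with circles for replicate 1, squares for replicate 2 and lines for the mean. *Itgb6* over *Itgav* is below 1 in the 4 untreated libraries and above 2 in the 4 treated ones, whereas *Itga6* over *Itgb1* stays at 0.181 to 0.229.

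The other question was whether deletion of *Lnc-Nr6a1* changed integrin transcripts. Between the untreated libraries, *Itgb5* was called higher in the KO-labelled ones, 1 of 9 subunits, where 1.03% of all genes tested were called higher and 1.83% in either direction. The log2 fold change of *Itgb5* was 0.69 (SE 0.14, 1.61-fold, adjusted p = 0.0423, edgeR). The remaining 8 subunits had log2 fold changes between -0.84 for *Itga2* (95% interval -1.78 to 0.1, adjusted p = 0.39, edgeR) and 0.57 for *Itgb4* (0.01 to 1.13, adjusted p = 0.324, edgeR), and the median of the 9 was 0.24 against 0.018 for all genes. Without the filter on low counts, which adds genes to the fit and leaves its own counts unchanged, *Itga2* was called lower (-0.88, adjusted p = 0.000703, edgeR). With the 4 untreated libraries alone *Itga2* was also called lower (-0.86, adjusted p = 0.0281, edgeR), and *Itgb4* was called higher (0.55, adjusted p = 0.0315, edgeR). Groups did not overlap for 51.9% of all genes in this comparison and for 55.8% between the treated libraries. The narrowest intervals around 0 were those of *Itga6* (-0.31 to 0.28) and *Itgb1* (-0.36 to 0.28). The call of *Itgb5* was lost without any 1 of the 4 untreated libraries, without either treated KO-labelled library (log2 fold changes of 0.64 to 0.73, adjusted p of 0.0677 to 0.352 when lost, edgeR), and with the adjustment for GC content given below.

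After TGF-β, *Itgb4*, *Itga3* and *Itgb5* were called higher in the KO-labelled libraries than in control cells, 3 of 9 subunits, against 8.47% of all genes tested called higher and 15.0% in either direction. *Itgb4* differed most, with 219 and 310 CPM in the KO-labelled libraries and 119 and 70.9 CPM in control cells. The difference was 2.78-fold (log2 fold change 1.48, SE 0.25, adjusted p = 0.00731, edgeR), and it passed the test with each library left out in turn (log2 fold changes of 1.15 to 1.92). An antisense RNA, *B230344G16Rik*, shares 537 exon bases (7.66%) with *Itgb4*. *Itga3* was higher by a log2 fold change of 0.74 (SE 0.19, adjusted p = 0.0286, edgeR) and *Itgb5* by 0.67 (SE 0.13, adjusted p = 0.0129, edgeR), without overlap of the libraries. The call of *Itga3* was lost without either untreated control library, without treated control replicate 2 and without treated KO-labelled replicate 2, and that of *Itgb5* without treated KO-labelled replicate 1, with adjusted p-values of 0.0523 to 0.176. *Itga5* (log2 fold change 1.16, adjusted p = 0.0611), *Itgb6* (0.58, adjusted p = 0.0831) and *Itgav* (0.51, adjusted p = 0.0987, all edgeR) were higher in both KO-labelled libraries. They did not pass the test in this fit to all libraries after the filter on low counts, with no block and no adjustment for GC content. Without the filter, with 20463 genes tested, all 3 were called (adjusted p of 2.18e-07, 0.00378 and 0.016, edgeR). The counts of these 3 genes were the same in both fits, so the lower values come with the genes added and not with a clearer separation of the libraries. Without treated control replicate 1 *Itga5* and *Itgav* were called, as was *Itga5* without treated KO-labelled replicate 1. The intervals of *Itga6* (-0.03 to 0.56), *Itgb1* (-0.22 to 0.42) and *Itga2* (-1.11 to 0.61) included 0. When the spread was taken from the 4 treated libraries alone, the adjusted p-values rose to 0.0531 for *Itgb4*, 0.0774 for *Itgb5* and 0.104 for *Itga3* (edgeR), and no member was called (6 of the 9 had an unadjusted p below 0.05 with all 8 libraries, and DESeq2 called 5 there).

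GC content moved with the differences between genotypes. The exons of *Itgb4* (59.4% GC), *Itga5* (57.5%), *Itgb5* (57.4%) and *Itga3* (57%) are GC-rich, those of *Itga2*, *Itga6*, *Itgb6*, *Itgb1* and *Itgav* have 43.4 to 45.3%, and the median of the genes tested was 49.7%. All of the members called between genotypes belong to the GC-rich group. Across 13028 genes, which are not independent replicates and share the same libraries, Spearman's rho of the log2 fold change with GC content was 0.41 between the treated and 0.35 between the untreated libraries, and -0.22 and -0.08 for TGF-β in control cells and in the KO-labelled libraries. Differences between replicates of a condition also followed GC content, with rho of 0.42 in untreated control cells, 0.47 in treated control cells, 0.06 in the untreated KO-labelled libraries and -0.36 in the treated ones. With counts adjusted for GC content, a fit added after the data were seen, *Itgb4* was still called between the treated libraries (log2 fold change 1.06, SE 0.18, adjusted p = 0.00487, edgeR). *Itga3* fell to 0.39 (adjusted p = 0.102, edgeR) and *Itgb5* to 0.32 after TGF-β (adjusted p = 0.151, edgeR) and to 0.51 without it (adjusted p = 0.117, edgeR). *Itgb6*, with 45% GC, was called higher in this fit (0.76, adjusted p = 0.0295, edgeR). For TGF-β, the adjusted fit made 5 calls in control cells, with *Itga5* in place of *Itga6*, and called the same 7 genes in the KO-labelled libraries.

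**Figure D4:**
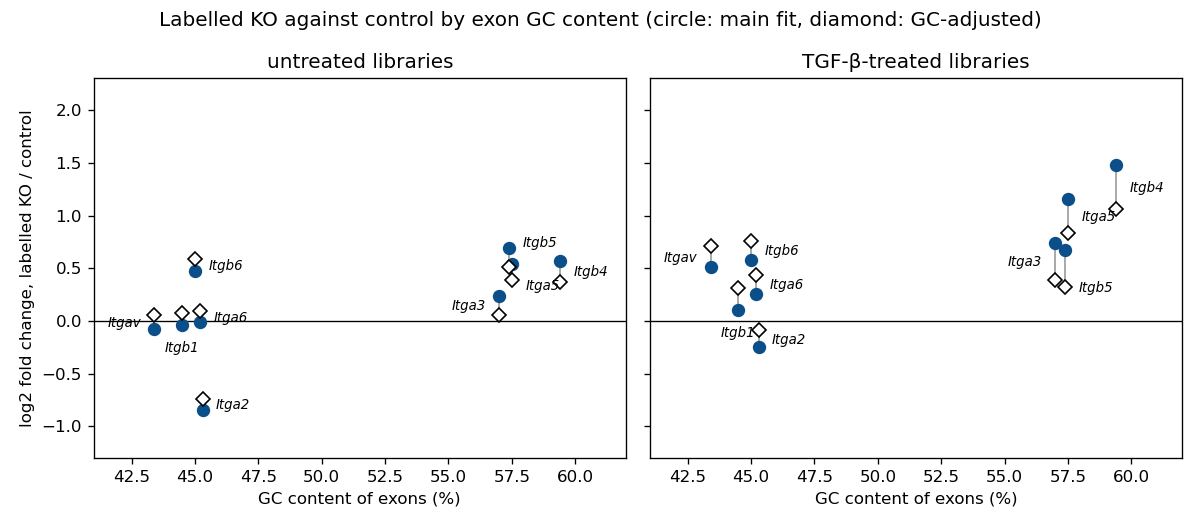
Log2 fold change of KO-labelled libraries over control (vertical axis) against the GC content of annotated exons in percent, untreated on the left and treated with TGF-β on the right. Circles are the fit without and diamonds the fit with adjustment for GC content, joined for each gene, and the right panel shows *Itgb4* moving from 1.48 to 1.06 and *Itgb6* from 0.58 to 0.76.

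Whether the response to TGF-β differed between backgrounds was tested as an interaction. With edgeR 0 of the 9 subunits passed the adjusted threshold, as did 0 of 13028 genes, and DESeq2 called 0 of the 9 and 26 of all genes. Without the filter on low counts edgeR called 211 genes, among them *Itgb4* (log2 difference 0.97, adjusted p = 0.0192), and with the adjustment for GC content 3 genes and no member. By the unadjusted threshold of 0.05 there was 1 member, *Itgb4*, whose response was larger by 0.9 on the log2 scale in the KO-labelled libraries (SE 0.35, edgeR's adjusted p = 0.518). For *Itgb6* the difference of the responses was 0.11 (95% interval -0.55 to 0.76) and for *Itgb5* -0.01 (-0.44 to 0.41). So the calls of *Itga5* and *Itgav* in one background and not in the other were not shown to differ, with differences of 0.61 (95% interval -0.57 to 1.8) and 0.59 (-0.01 to 1.19).

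Among 17 other integrin subunits, 5 could be tested. *Itgb7*, a β subunit best known from lymphocytes, had 204 and 154 CPM in untreated control cells and 75.8 and 76.7 CPM after TGF-β, and it fell by a log2 fold change of 1.23 (SE 0.2, adjusted p = 0.00738, edgeR), opposite in direction to the rise of the 5 subunits above. The call was lost without control replicate 1 (adjusted p = 0.0839, edgeR). In the KO-labelled libraries *Itgb7* was at 180 and 126 CPM before and 99.9 and 94.4 CPM after treatment and was not called (log2 fold change -0.65, adjusted p = 0.0857, edgeR). *Itgb3*, a further partner of *Itgav*, had 51.5 and 65.4 CPM before and 90 and 77.4 CPM after TGF-β in control cells, without overlap. Its log2 fold change there was 0.52 (SE 0.19, adjusted p = 0.121, edgeR) and was not called. In the KO-labelled libraries it rose from 43 and 56.1 to 88.7 and 106 CPM (log2 fold change 0.96, SE 0.19, adjusted p = 0.0194, edgeR), a call that was lost without either untreated library or treated replicate 2 (adjusted p of 0.0757 to 0.162, edgeR). The responses of *Itgb7* and *Itgb3* were not shown to differ between backgrounds (log2 differences of 0.58 and 0.45, adjusted p = 0.599 and 0.674 for the interaction, edgeR). *Itga1*, a further collagen-binding partner of *Itgb1*, had 29 and 46.1 CPM in treated control cells and 16.9 and 16.5 CPM in the treated KO-labelled libraries, lower by 2.25-fold (adjusted p = 0.0136, edgeR). It lost its call without treated control replicate 2 or treated KO-labelled replicate 2 (adjusted p of 0.0504 and 0.0813, edgeR), and with the 4 treated libraries alone (adjusted p = 0.069, edgeR). *Itga4*, *Itga8*, *Itga9*, *Itgad*, *Itgax* and *Itgb2l* were at 0 counts in every library, which allows up to 0.661 CPM in the shallowest one.

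Of the genes for extracellular ligands, 16 of 18 listed were tested, and after TGF-β 9 rose and 1 fell in control cells, while 7 rose in the KO-labelled libraries, where 9.16% and 6.82% of all genes tested were called in either direction. Their median log2 fold change was 1.14 and 1.01, against 0.016 and 0 for all genes tested. Of the 10 ligand calls in control cells, 3 held without control replicate 1 and 4 without control replicate 2, and of the 7 in the KO-labelled libraries 3 held without either untreated library and 4 without treated replicate 2. These fits called 1.05% and 2.28% of all genes for control cells, and 0.995%, 1.27% and 2.09% for the others. The laminin chains *Lama3* and *Lamb3*, parts of ligands of α3β1 and α6β4, rose in both backgrounds. *Lama3* had 0 and 1 counts in untreated control cells and 38 and 31 counts after treatment, and 0 and 0 counts then 25 and 113 counts in the KO-labelled libraries. *Lamb3* was higher in the KO-labelled libraries both before treatment (559 and 492 against 275 and 305 CPM, log2 fold change 0.86, adjusted p = 0.0216, edgeR) and after it (1529 and 1629 against 577 and 470 CPM, 1.59, adjusted p = 0.000759, edgeR). The untreated call of *Lamb3* was lost without any 1 of the 4 untreated libraries (adjusted p of 0.126 to 0.218, edgeR), and the treated one passed with each library left out.

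*Ctgf*, a secreted matrix protein that binds integrins, rose 8.17-fold in control cells and 13.6-fold in the KO-labelled libraries (adjusted p = 0.000798 and 0.000313, edgeR). Thrombospondin (*Thbs1*), the related matrix protein *Cyr61* and the laminin chain *Lamb1* were also called higher in both. *Fn1*, the fibronectin bound by α5β1, rose in control cells from 48.4 and 63.8 to 136 and 115 CPM (log2 fold change 1.16, adjusted p = 0.0332, edgeR), as did osteopontin (*Spp1*; 0.91, adjusted p = 0.00308, edgeR), and *Lama5* fell by 0.96 (adjusted p = 0.0329, edgeR). In the KO-labelled libraries the log2 fold changes of *Fn1* (0.73, adjusted p = 0.153, edgeR) and *Spp1* (0.43, adjusted p = 0.0656, edgeR) did not pass, nor did that of *Lama5* (-0.1, adjusted p = 0.836, edgeR). The responses of the 3 genes were not shown to differ between backgrounds (adjusted p = 0.793, 0.497 and 0.512 for the interaction, edgeR). *Fn1* and *Lama5* lost these calls without either untreated control library, among others (adjusted p of up to 0.239 and 0.185, edgeR), and *Lama5* with the 4 libraries of the comparison alone (adjusted p = 0.0514, edgeR). *Ctgf* kept its call in both backgrounds with each library left out. Between the treated libraries 3 ligand genes were higher in the KO-labelled ones, *Lamb3*, *Lama5* (1.13, adjusted p = 0.0133, edgeR) and *Tgfb1* (0.94, adjusted p = 0.0313, edgeR). They were 3 of 16 tested, where 8.47% of all genes were called higher and 15.0% in either direction, a share near that background. With treated KO-labelled replicate 2 left out, 1 of these 3 held. With the 4 treated libraries alone *Lama5* and *Tgfb1* lost their calls (adjusted p = 0.0616 and 0.104, edgeR), and with the adjustment for GC content *Tgfb1* did (adjusted p = 0.0514, edgeR).

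Of 31 listed cytoplasmic adaptors and activators, which link the β tails to actin and signalling, 30 were tested. After TGF-β 3 were called higher in control cells and 4 higher and 1 lower in the KO-labelled libraries, beside 9.16% and 6.82% of all genes tested called in either direction. The 3 of 30 in control cells are a share near that background. The median log2 fold changes were 0.18 and 0.4, against 0.016 and 0 for all genes tested. *Fermt1* (kindlin-1), an epithelial activator that binds β tails, was at 38.7 and 62 CPM before and 371 and 199 CPM after treatment in control cells, and at 54 and 61.8 CPM before and 188 and 416 CPM after it in the KO-labelled libraries. Its log2 fold changes were 2.5 (adjusted p = 0.00767, edgeR) and 2.38 (adjusted p = 0.0105, edgeR), and its call was lost in control cells without control replicate 1 (adjusted p = 0.096) and in the others without either untreated library (adjusted p of 0.1 and 0.115, edgeR). The docking protein *Nedd9* rose by 1.62 in control cells and 1.1 in the KO-labelled libraries, on the log2 scale (adjusted p = 0.00248 and 0.0135, edgeR). *Tns1*, described below, was called higher after treatment in both backgrounds (2.15 and 0.93, adjusted p = 0.00308 and 0.0402, edgeR). In the KO-labelled libraries *Lims2* also rose (1.17, adjusted p = 0.0364, edgeR) and *Kank1* fell (-1.16, adjusted p = 0.028, edgeR). Of the 5 calls in the KO-labelled libraries, 1 held without untreated replicate 1 and 0 without untreated replicate 2 (12 of the 30 genes had an unadjusted p below 0.05 with all libraries, and DESeq2 called 7 there).

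Tensin 1 (*Tns1*), which binds β1 tails, was the adaptor that differed most between the untreated genotypes, and *Lims2* between the treated ones. It was at 1.81 and 1.59 CPM in untreated control cells, 8.71 and 6.46 CPM after TGF-β, 16.5 and 17.8 CPM in the untreated KO-labelled libraries and 35.4 and 30.3 CPM in the treated ones. All KO-labelled libraries were above all control libraries, and the log2 fold changes were 3.33 untreated (SE 0.28, adjusted p = 0.000764, edgeR) and 2.11 treated (SE 0.23, adjusted p = 0.00117, edgeR), both called with each library left out. Between the treated libraries 8 adaptors were higher and 2 lower in the KO-labelled ones, where 15.0% of all genes tested were called in either direction. *Lims2*, a partner of integrin-linked kinase, was higher by 2.23 (adjusted p = 0.00234, edgeR) and talin 1 (*Tln1*), which activates integrins, by 1.04 (adjusted p = 0.0037, edgeR). *Parvb* (1.18, adjusted p = 0.0125), *Kank2* (0.84, 0.00731), *Arhgef7* (0.83, 0.0341), *Tln2* (0.76, 0.0138) and *Tns3* (0.76, 0.0369, all edgeR) were also higher. The 2 lower ones were *Kank1* (-1.07, adjusted p = 0.0228, edgeR) and *Itgb1bp1* (-0.62, adjusted p = 0.0454, edgeR), and DESeq2 did not call *Itgb1bp1*. Of these 10 calls, 4 held without treated KO-labelled replicate 2, 5 without treated control replicate 2, 3 with the 4 treated libraries alone and 9 with the adjustment for GC content. Over all genes the calls were 3.57%, 9%, 3.21% and 14.7% in these fits.

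Of the 4 hemidesmosome genes listed beside *Itgb4*, *Col17a1* had at most 3 counts and was not tested. *Plec*, the plectin that joins α6β4 to keratin filaments, was at 789 and 465 CPM in treated control cells and at 1178 and 2046 CPM in the treated KO-labelled libraries, a log2 fold change of 1.36 (SE 0.29, adjusted p = 0.0152, edgeR), in the same direction as *Itgb4*. The call was lost without treated KO-labelled replicate 2 (log2 fold change 0.92, adjusted p = 0.0891, edgeR) and with the 4 treated libraries alone (adjusted p = 0.0786, edgeR). *Dst* and *Cd151* did not pass the test in that comparison.

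The 2 genes whose log2 CPM over the 8 libraries followed each member most closely were found among all genes tested, as a description only, since the 8 points are 4 conditions that share their treatment and base composition. *Itgb6* was followed by *Acvr1* (Pearson's r = 0.998) and *Endod1* (0.995). *Itga2* was followed by *Ankrd50* and *Spty2d1* (both 0.993), and *Itga5* by *Rhou* (0.993) and *5730559C18Rik* (0.991). For *Itga6* they were *Capn2* (0.994) and *Zbtb38* (0.99), for *Itgb1* *Cald1* and *Bmpr2* (both 0.994), and for *Itgav* *Txndc5* (0.989) and *Lrrc8c* (0.985). *Itga3* was followed by *Agrn* (0.992) and *Ctif* (0.983), *Itgb4* by *Ccs* (0.989) and *Ptprs* (0.987), and *Itgb5* by *Lgr6* (0.992) and *Ak1* (0.99).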

How the data were processed

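The authors deposited whole-number read counts per gene for the 8 libraries, not normalized, and all columns were used. According to the methods, reads were aligned with subjunc to mm10 and mm9, duplicates were removed and counts were tested with DESeq2. The labels name HISAT2, limma and mm10 and describe another library kit. The counter and its strand setting are not given in the sources used here. The 37310 identifiers match GENCODE vM1 (mm9), which gave positions and lengths. After filterByExpr (13028 genes), edgeR 4.0.16 (R 4.3.3) gave CPM with TMM factors and the glmQLFTest results, with 4 groups and no block. The code was also run on counts simulated with the same spread for all genes and no effect of GC content or replicate. That run does not test the calls under such effects. The standard error is the absolute log2 fold change divided by the square root of F. Promoters and miRNAs are from RefSeq (GRCm38.p6), and motifs were searched on both strands.

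All members are given. Other listed genes were counted, and named where called, along with some others that pair with, bind or anchor a member. A called ligand gene is counted but not reported here by name. The members and lists were chosen with earlier results of these data known. Alternatives were DESeq2 1.42.0, RLE factors, no filter, a filter at a mean of 10 counts, a replicate block, the 4 libraries of a comparison, each library left out and, chosen after seeing the data, a GC adjustment and a crossed pairing. Whether the libraries came from separate cultures beyond the label of biological replicates is not given, so p-values measure the spread between them.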

Additional observations from a re-analysis of the deposited data

How the results depend on the processing

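Counts of called subunits are given per setting. Between untreated genotypes (1 called) there were 2 with no filter, 3 with the 4 libraries of the comparison, 0 with the replicate block (*Itgb5*, adjusted p = 0.0606, edgeR), 0 with the GC adjustment and 0 to 1 with a library left out. For TGF-β in control cells (5) there were 6 with DESeq2 and 6 with no filter (both with *Itga5*), 3 with the 4 libraries of the comparison and 1 to 6 with a library left out, and in the KO-labelled libraries (7) 8 with no filter (with *Itgb4*) and 1 to 7 with a library left out. Between treated genotypes (3) there were 5 with DESeq2, 6 with no filter, 0 with the 4 libraries of the comparison and 2 to 5 with a library left out. The interaction gave 0, and 1 with no filter (*Itgb4*, log2 difference 0.97, adjusted p = 0.0192, edgeR). The causes were not tested beyond what each setting changes. The sources used here do not say that a replicate number marks a shared culture or batch, so same-numbered libraries were not treated as pairs. The correlations of their deviations were 0.098, 0.3, -0.0092 and -0.47 in the order of the comparisons above. The block gave 150 called genes in place of 238 between untreated and 1490 in place of 1959 between treated genotypes, and changed no other member's call. Among the other listed genes it ended the TGF-β calls of *Lama5* in control cells and *Tns1* in the KO-labelled libraries, and those of *Arhgef7*, *Tns3* and *Itgb1bp1* between treated genotypes. Crossing the numbers between treated genotypes called 5 subunits and 2809 genes.

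Directions reversed only among members that were not called. With the GC adjustment the untreated genotype difference was 0.09 for *Itga6*, 0.06 for *Itgav* and 0.08 for *Itgb1*. With a library left out it ranged from -0.12 to 0.08 for *Itga6*, -0.2 to 0.02 for *Itgav* and -0.14 to 0.06 for *Itgb1*, and the TGF-β change of *Itga3* in the KO-labelled libraries from -0.1 to 0.24. Between treated genotypes *Itgb1* ranged from -0.03 to 0.27 and *Itga2* from -1.03 to 0.27. In the interaction *Itgb6* ranged from -0.14 to 0.35, *Itga2* from -0.17 to 1.13 and *Itgb5* from -0.05 to 0.1, and *Itgb5* was at 0.05 with no filter. Of 243 alternative values for called members 198 kept their direction and their side of the threshold and 45 their direction only, and of 432 for members not called 23 passed it and 22 reversed. Of 675 for other listed genes that were called, 563 kept their call.

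All genes called between untreated genotypes numbered 238, against 428 with DESeq2, 756 with no filter and 804 with the 4 libraries alone. For TGF-β they numbered 1194 in control cells (2021 with no filter, 470 with the 4 libraries) and 889 in the KO-labelled libraries (1832 with no filter, 1339 with the GC adjustment), and between treated genotypes 1959 (410 with the 4 libraries). Each group has 2 libraries, so the spread rests mostly on what genes share, and without any 1 of the 4 untreated libraries the calls between untreated genotypes fell to between 42 and 53. They rose to 385 and 390 without treated control replicate 1 or 2. The TGF-β calls in control cells fell to 145 and 314 without control replicate 1 or 2, and to 617 and 612 without untreated KO-labelled replicate 1 or 2. Those in the KO-labelled libraries fell to 136, 174 and 279 without untreated replicate 1 or 2 or treated replicate 2, fell to 574 and 584 without control replicate 1 or 2, and rose to 1380 and 1381 without treated control replicate 1 or 2. Between treated genotypes they fell to 477 and 1226 without treated KO-labelled replicate 2 or 1, and to 1198 without treated control replicate 2. Other omissions moved these counts by less than 1.5 times. *Itgb8*, with 1 to 5 counts, did not pass the filter on low counts, and whether depth or a low level in the cells set these counts was not tested.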
